A study of Homo sapiens with 6 samples.

Results

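HOX genes encode homeodomain transcription factors that lie side by side in 4 clusters, HOXA, HOXB, HOXC and HOXD, on chromosomes 7, 17, 12 and 2. Their expression in LoVo cells, a human colon adenocarcinoma line, is described here in 3 libraries labelled SHARPIN knockout and 3 labelled non-target. The members are the 38 gene symbols made of HOX, a cluster letter and a number, of 22496 symbols in the deposited lists. They were chosen by name, and HOXB1 stood in none of the 6 lists. A level then decided which were tested: 25 members had at least 1 FPKM (fragments scaled by transcript length and by the mapped total) in at least 3 of the 6 libraries, and the other 13 are given by level only. Just inside that limit were HOXC5 and HOXC9, whose third-highest libraries held 1.10 and 1.27 FPKM. Just outside were HOXD3 and HOXA2, at 0.923 and 0.718 FPKM.

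SHARPIN is a subunit of the complex that builds linear ubiquitin chains. Both groups are the same cell line and differ, as labelled, in genotype only. How the knockout was made, whether it is 1 clone or a pool, and whether replicates were separate cultures is not given in the labels, so the p-values below speak for the scatter among these 6 libraries, possibly technical, and not for separate cultures or clones.

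The protein-coding HOX genes of a cluster are read in the same direction and are numbered from the 3′ end to the 5′ end. Genes with the same number in different clusters are paralogues, descended from 1 ancestral gene. In the embryo the low-numbered genes are switched on early and toward the head and the high-numbered ones late and toward the tail, and adult tissues, the colon included, keep a set of them active. Polycomb complexes keep silent clusters repressed, MLL/trithorax complexes keep active ones on, and the caudal-type factors CDX1 and CDX2 act upstream of HOX genes in the gut.

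Depth was similar throughout: an estimated 21000000 to 22500000 fragments stood behind each library, so that 1 fragment was worth about 0.0444 to 0.0476 FPKM on a transcript of 1 kb. Each library listed 19068 to 20158 genes, with summed FPKM of 416852 to 522919, the highest in knockout replicate 3. SHARPIN itself had 7.55, 11.9 and 18.0 FPKM in knockout replicates 1, 2 and 3, against 11.9, 13.9 and 12.9 FPKM in the non-target libraries (log2 fold change -0.12, adjusted p = 0.827), so its level does not check the labels. Of 11 colon epithelium markers, all were found and tested: 1 rose, 5 fell and 5 did not pass, where 6.26% of all genes tested rose and 5.93% fell (limma, adjusted p below 0.05). With a replicate block 2 of these markers rose in place of 1. GPA33, LGALS4 and CDH17 fell, with log2 fold changes of -4.31, -3.75 and -3.29. EPCAM, an epithelial surface protein, was at 132 FPKM or more in all libraries. CDX2 had 18.6, 21.2 and 24.6 FPKM in the knockout libraries and 22.5, 17.9 and 16.0 FPKM in the non-target libraries. EPCAM, CDX2 and KRT20 were picked after their values were seen. Non-target replicate 1 stood apart in fibroblast transcripts. Summed over 10 markers they came to 0.366 to 1.04 FPKM in the knockout libraries, against 20.6, 8.07 and 7.88 FPKM in non-target replicates 1, 2 and 3. COL1A1 stood at 6.60 and COL1A2 at 6.12 FPKM in non-target replicate 1, and neither passed 0.290 FPKM elsewhere. LUM made up 7.52 and 7.45 FPKM of the sum in non-target replicates 2 and 3. Leukocyte markers summed to 1.54 to 3.62 FPKM in the knockout libraries, against 46.1 to 67.0 FPKM in the non-target libraries. Endothelial markers summed to 0.339 to 0.395 FPKM in the knockout libraries, against 1.33 to 1.99 FPKM in the non-target libraries. Leukocyte markers other than LYZ, which also marks Paneth cells, and endothelial markers other than ERG were below 1 FPKM in all 6 libraries. Among the endothelial markers CDH5 was at 0 in the non-target libraries, while PECAM1 had 0.010, 0.011 and 0.062 FPKM in the knockout libraries, against 0.533, 0.552 and 0.616 FPKM in the non-target libraries. ERG was at 0.216 to 0.269 FPKM in the knockout libraries, against 0.645 to 1.31 FPKM in the non-target libraries. The part of these transcripts in the HOX levels was not tested, and the counts of called HOX genes are also given without non-target replicate 1. In bulk RNA, fewer cells of a type and less RNA per cell cannot be told apart.

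The knockout libraries held more HOXB and less HOXD transcript than the non-target libraries. Summed over the 9 HOXB genes listed, the level was 419, 379 and 399 FPKM in knockout replicates 1, 2 and 3, against 154, 124 and 131 FPKM in non-target replicates 1, 2 and 3. The lowest knockout sum thus lay above the highest non-target sum, and the ratio of the means was 2.92. The HOXD sum was 4.72, 8.27 and 7.73 FPKM in the knockout libraries, against 13.3, 13.1 and 12.4 FPKM in the non-target libraries, a ratio of 0.533 with no overlap. HOXA sums overlapped, at 136, 94.6 and 95.7 FPKM in the knockout libraries against 113, 102 and 102 FPKM in the non-target libraries. HOXC sums overlapped as well, at 3.48, 9.54 and 9.89 FPKM in the knockout libraries against 8.72, 8.49 and 9.41 FPKM in the non-target libraries. HOXB made up 74.3% to 77.9% of all HOX FPKM in the knockout libraries and 50.2% to 53.4% in the non-target libraries. HOXA made up 18.7% to 24.2% in the knockout libraries and 39.0% to 41.1% in the non-target libraries. Sums are descriptions without a test, and a few abundant genes dominate them.

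**Figure D1:**
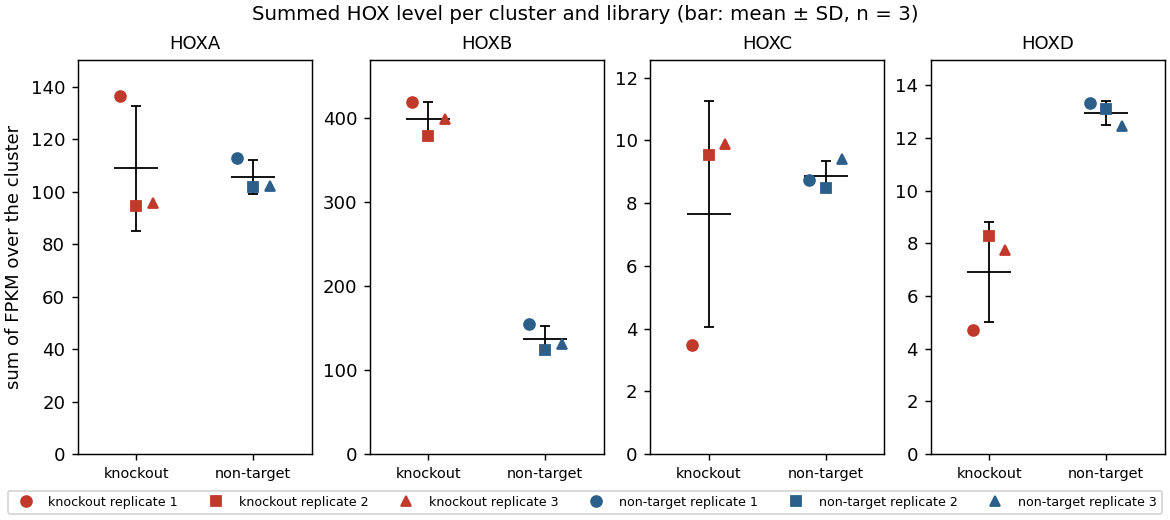
Sum of FPKM over the listed members of each HOX cluster, knockout at left and non-target at right in each panel; each point is 1 library and the bar is the mean ± SD of 3 libraries. The HOXB sums of the knockout libraries (379 to 419) lie above those of the non-target libraries (124 to 154), the HOXD sums lie below, and the HOXA and HOXC sums overlap.

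Of the 25 members tested, 6 rose, 2 fell and 17 did not pass the threshold (limma on log2(FPKM + 1), adjusted p below 0.05). All 5 of the HOXB genes that rose lie from HOXB3 to HOXB9 on the minus strand of chromosome 17, among them HOXB4 (chr17:46652869-46655712), HOXB6 (chr17:46673113-46682354), HOXB8 (chr17:46688739-46692654) and HOXB9 (chr17:46698518-46703720), in GENCODE coordinates on GRCh37. The other was HOXA5 (chr7:27180671-27183300, minus strand). HOXD4 (chr2:177016278-177017954) and HOXD13 (chr2:176957449-176960672), both on the plus strand, fell. Over all 13092 genes tested 12.2% were called, 6.26% higher and 5.93% lower in knockout. The share among HOX genes was 32%, of which the 5 calls in HOXB make up most. The median log2 fold change was 0.14 over the 25 HOX genes, 1.43 over the 8 tested in HOXB and 0.02 over all genes tested. The filter can pass a gene through the group where it is high. HOXD13, HOXC4 and HOXC9 reached 1 FPKM in every non-target library but not in every knockout library. HOXA4 reached it in every knockout library but not in every non-target library. These counts thus describe the tested members and not all 38. The increases were 5 without knockout replicate 2, non-target replicate 2 or non-target replicate 3, where HOXA5 lost its call. They numbered 8 without knockout replicate 1 and 9 with a replicate block. The decreases numbered 0 without non-target replicate 2 or 3, 1 without knockout replicate 2 and 4 with a replicate block. Without non-target replicate 1 the counts were 6 and 2.

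**Figure D2:**
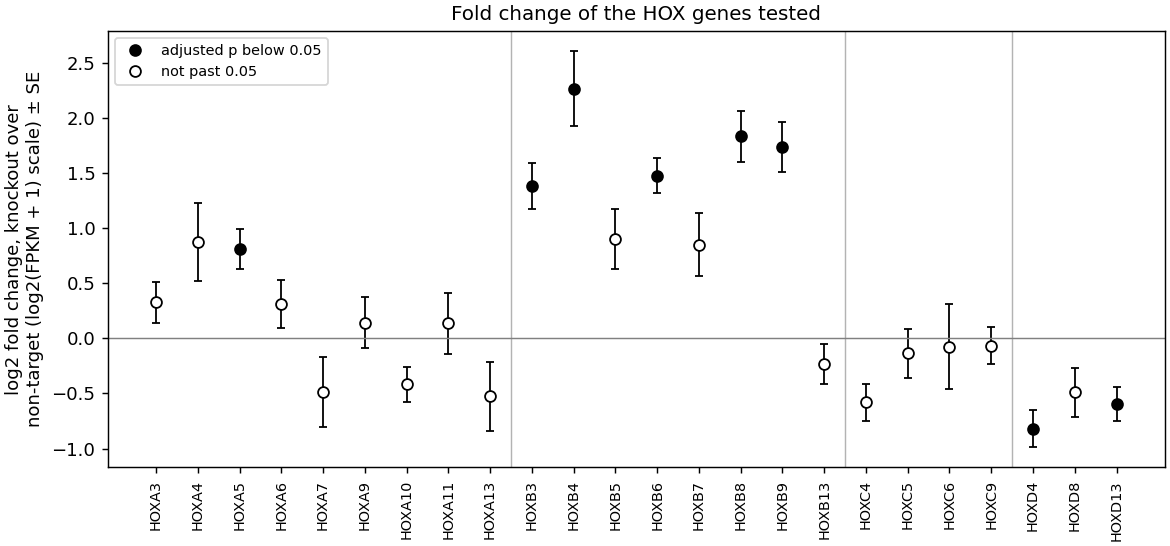
Log2 fold change of knockout over non-target on the log2(FPKM + 1) scale for the HOX genes tested and reported, ordered by cluster and paralogue group, with the SE from limma; filled points passed an adjusted p of 0.05 and open points did not. The 7 genes from HOXB3 to HOXB9 all lie above 0, and the 3 HOXD genes all lie below.

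HOXB9, which patterns the thoracic skeleton and mammary gland in mice, was the most abundant HOX transcript in the knockout libraries. It had 146, 99.5 and 107 FPKM in knockout replicates 1, 2 and 3, against 45.8, 28.3 and 30.1 FPKM in non-target replicates 1, 2 and 3. The groups did not overlap, and replicate 1 was the highest library in each. Its log2 fold change was 1.74 ± 0.23 (SE; adjusted p = 0.000970, n = 3 per group). HOXB6, whose paralogues take part in axial patterning, was the most even of the abundant members. It had 102, 93.0 and 89.0 FPKM in the knockout libraries, against 35.9, 30.2 and 33.9 FPKM in the non-target libraries. The 3 knockout libraries lay close together, far above the non-target libraries (log2 fold change 1.48 ± 0.16, adjusted p = 0.000304). HOXB3, a regulator of hindbrain and pharyngeal development, had 45.0, 44.9 and 38.1 FPKM in the knockout libraries, against 21.5, 13.5 and 13.1 FPKM in the non-target libraries. Non-target replicate 1 was again the highest of its group, and the groups did not overlap (1.39 ± 0.21, adjusted p = 0.00213).

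HOXB4, known for expanding blood stem cells when overexpressed, had the largest fold change of the 25, with a wide spread in knockout. Its level was 56.4, 26.1 and 18.2 FPKM in knockout replicates 1, 2 and 3, against 6.08, 4.80 and 5.47 FPKM in non-target replicates 1, 2 and 3. Every knockout library lay far above every non-target library, and the log2 fold change was 2.27 ± 0.34 (SE; adjusted p = 0.00209). HOXB8, which holds myeloid progenitors in an immature state when forced on, showed the opposite order among the knockout libraries. It had 30.8, 46.7 and 59.0 FPKM there, against 9.95, 12.6 and 12.5 FPKM in the non-target libraries (1.84 ± 0.24, adjusted p = 0.000867). Knockout replicate 1 was the lowest of its group and still above every non-target library. HOXB3, HOXB4, HOXB6, HOXB8 and HOXB9 kept an adjusted p below 0.05 without any single library, without both replicate 1 libraries and under each other setting tried, the highest being 0.0242.

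HOXB5 and HOXB7 lay above their non-target values without passing. HOXB5, a factor of lung and enteric nerve development, had 14.8, 29.9 and 34.4 FPKM in the knockout libraries, against 12.5, 12.9 and 13.04 FPKM in the non-target libraries (log2 fold change 0.90 ± 0.27, adjusted p = 0.0638). HOXB7, often studied in breast cancer, had 19.4, 34.1 and 49.2 FPKM in the knockout libraries, against 16.2, 17.3 and 18.4 FPKM in the non-target libraries (0.85 ± 0.29, adjusted p = 0.0911). In both genes knockout replicate 1 lay near the non-target libraries and replicates 2 and 3 far above them. Both passed without knockout replicate 1 (adjusted p = 0.00101 and 0.00424) and with a replicate block (2.40e-06 and 9.25e-06). At the ends of the cluster, HOXB2 was too low for the test and HOXB13 did not pass. HOXB2 had 0.191, 0.411 and 0.486 FPKM in the knockout libraries and 0.222, 0.343 and 0.270 FPKM in the non-target libraries. HOXB13, a marker of posterior gut and prostate, had 3.92, 4.08 and 4.16 FPKM in the knockout libraries and 6.19, 4.24 and 4.53 FPKM in the non-target libraries (-0.23 ± 0.18, adjusted p = 0.482). Of the 8 HOXB genes tested, 7 had no overlap upward and HOXB13 had none downward, where 16.5% and 15.7% of all genes tested had none in those directions.

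**Figure D3:**
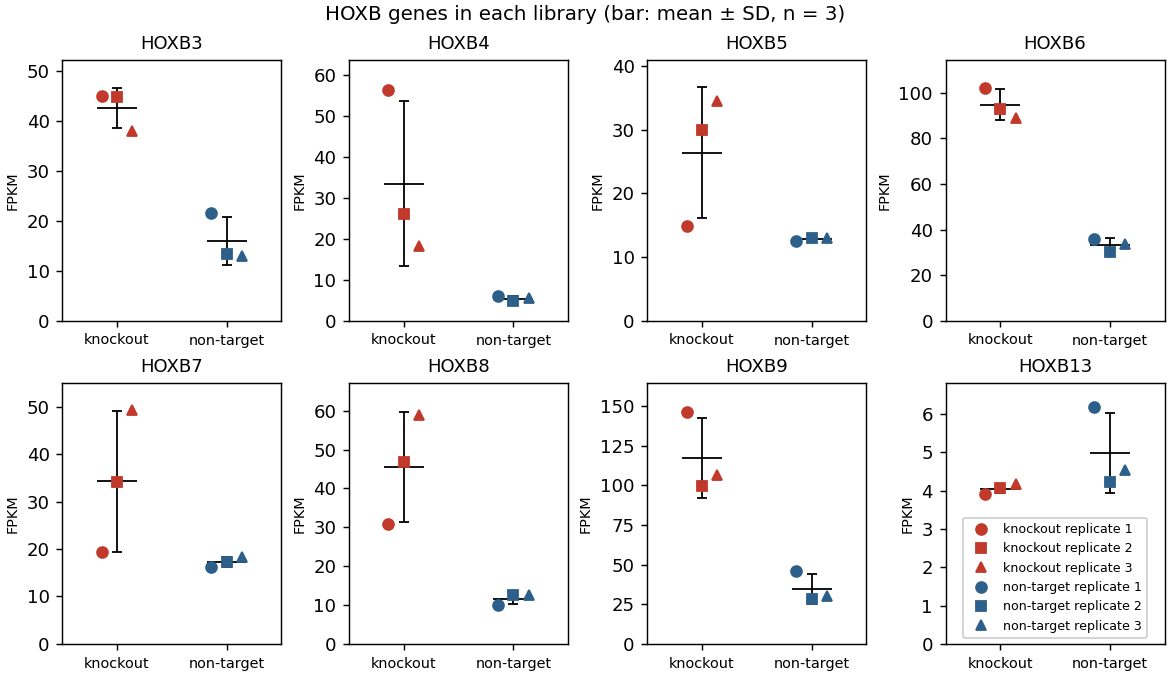
FPKM of the 8 HOXB genes tested, knockout at left and non-target at right; each point is 1 library, with a shape for its replicate number, and the bar is the mean ± SD of 3 libraries. HOXB3 to HOXB9 lie higher in every knockout library; knockout replicate 1 is the highest of its group in HOXB4 (56.4) and HOXB9 (146) and the lowest in HOXB5 (14.8), HOXB7 (19.4) and HOXB8 (30.8).

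HOXB8 is a textbook target of miR-196, a microRNA family encoded inside the HOX clusters, and the sequences are shown because HOXB8 rose and carries a site that pairs along the whole microRNA. MIR196A1 lies in HOXB, MIR196A2 in HOXC and MIR196B in HOXA, and miR-10a, which has another seed, is encoded near HOXB4. The mature sequences, from RefSeq on GRCh38.p14, are written 5′ to 3′ with the seed, bases 2 to 8, in capitals, and the miR-196 forms share 1 seed.
hsa-miR-196a-5p: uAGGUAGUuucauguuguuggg
hsa-miR-196b-5p: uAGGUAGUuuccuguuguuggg
hsa-miR-10a-5p: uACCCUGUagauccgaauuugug
In the 3′ UTR of HOXB8 the 22 bases at chr17:46690132-46690153 (GRCh37, minus strand) can pair along the whole of miR-196a, with 21 Watson-Crick pairs and 1 wobble pair. Capitals mark the bases that pair.
HOXB8 site: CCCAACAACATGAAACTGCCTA
Of 19179 genes with an annotated 3′ UTR, 2 held a 22-base window with as many pairs, HOXB8 being 1 of them. A 3′ UTR match to the seed alone (ACTACCT, transcript strand) was present in 8 of the 38 HOX genes, or 21.1%, and in 7.70% of the 19179 genes. The median 3′ UTR was 910.5 bases for HOX genes and 1235 bases for all. HOXA5, HOXA7, HOXA9, HOXB6, HOXB7, HOXB13 and HOXC8 were among the 8. HOXB8 was not, since its 3′ UTR held 0 matches to ACTACCT. Of the 8, HOXA5 and HOXB6 rose, 5 did not pass and HOXC8 was too low for the test, where 12.2% of all genes tested were called in either direction. Poly-A libraries do not measure mature microRNA. The symbol MIR196A1 held 0.868, 3.09 and 2.30 FPKM in the knockout libraries and 0.775, 3.53 and 2.74 FPKM in the non-target libraries (adjusted p = 0.917). MIR196B held 5.16, 6.88 and 9.84 FPKM in the knockout libraries and 6.07, 8.43 and 10.2 FPKM in the non-target libraries (adjusted p = 0.732). A match is a description of the letters and says nothing about repression in these cells.

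HOXA genes divided along the cluster without a common direction. HOXA5, a regulator of lung development, was the member that rose. It had 8.61, 11.4 and 12.8 FPKM in the knockout libraries, against 5.75, 5.61 and 5.75 FPKM in the non-target libraries (log2 fold change 0.82 ± 0.18, adjusted p = 0.0171). The non-target libraries were nearly equal and all knockout libraries lay above them. HOXA5 lost the call without knockout replicate 2 (adjusted p = 0.0677), non-target replicate 2 (0.0768) or non-target replicate 3 (0.0746). HOXA9, a leukaemia-associated factor and the most abundant HOXA transcript, had 54.5, 30.8 and 33.2 FPKM in the knockout libraries and 40.9, 31.2 and 32.1 FPKM in the non-target libraries (adjusted p = 0.752). Replicate 1 was the highest library in each group, and the groups overlapped. HOXA10, known for uterine patterning, had 17.5, 14.3 and 17.6 FPKM in the knockout libraries, against 21.0, 22.8 and 22.8 FPKM in the non-target libraries. Its groups did not overlap, but it did not pass (-0.42 ± 0.16, adjusted p = 0.132).

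Among the low-numbered HOXA genes, HOXA4 had 6.10, 2.05 and 2.08 FPKM in the knockout libraries and 2.28, 0.873 and 0.746 FPKM in the non-target libraries. The groups overlapped because replicate 1 was the highest library in each (0.88 ± 0.36, adjusted p = 0.155), and with a replicate block the adjusted p was 3.88e-05. HOXA3, a factor of pharyngeal development, had 2.01, 2.22 and 1.99 FPKM in the knockout libraries and 2.14, 1.095 and 1.23 FPKM in the non-target libraries. Its groups overlapped and it did not pass (0.33 ± 0.19, adjusted p = 0.323). HOXA2 was at 1.53, 0.609 and 0.842 FPKM in the knockout libraries and 0.718, 0.496 and 0.342 FPKM in the non-target libraries. HOXA6 and HOXA7 ran from 2.26 to 8.70 FPKM with overlapping groups and did not pass (adjusted p = 0.412 and 0.390). HOXA13, which patterns the hindgut and the digits, had 24.6, 12.3 and 8.56 FPKM in the knockout libraries and 23.1, 18.3 and 19.9 FPKM in the non-target libraries (-0.52 ± 0.31, adjusted p = 0.342). Knockout replicate 1 was at the non-target level and replicates 2 and 3 below it. Without knockout replicate 1 HOXA13 passed as lower, at -0.92, and with a replicate block it passed as well (adjusted p = 0.0136). HOXA11 had 10.9, 4.79 and 4.86 FPKM in the knockout libraries and 6.44, 5.52 and 5.27 FPKM in the non-target libraries (adjusted p = 0.809). The direction of HOXA9 and HOXA11 was higher with all libraries and lower without knockout replicate 1.

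HOXD transcripts were scarce, at most 4.90 FPKM, and lower in the knockout libraries for most of the cluster. HOXD4 had 1.52, 2.29 and 1.97 FPKM in the knockout libraries, against 4.34, 3.99 and 4.08 FPKM in the non-target libraries (log2 fold change -0.82 ± 0.17, adjusted p = 0.0130). HOXD13, the digit-patterning gene at the 5′ end, had 0.737, 0.911 and 1.06 FPKM in the knockout libraries, against 1.59, 1.98 and 2.07 FPKM in the non-target libraries (-0.60 ± 0.15, adjusted p = 0.0339). In both genes every knockout library lay below every non-target library. HOXD4 had an adjusted p of 0.0584 without non-target replicate 2 and 0.0676 without non-target replicate 3, both above the threshold. HOXD13 lost its call when knockout replicate 1 (0.0557), knockout replicate 2 (0.0832), non-target replicate 2 (0.153) or non-target replicate 3 (0.177) was left out. HOXD8 had 1.80, 3.53 and 3.53 FPKM in the knockout libraries, against 4.90, 4.39 and 4.01 FPKM in the non-target libraries, with no overlap but no call (-0.49 ± 0.22, adjusted p = 0.203).

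The other 6 HOXD genes were too low for the test. HOXD10 stood at 0.075, 0.075 and 0.048 FPKM in the knockout libraries, against 0.431, 0.501 and 0.521 FPKM in the non-target libraries. HOXD11 stood at 0.062, 0.065 and 0.021 FPKM in the knockout libraries, against 0.281, 0.493 and 0.389 FPKM in the non-target libraries. At these levels a knockout value amounts to a handful of fragments, and 18.2% of the exonic bases of HOXD10 and 21.4% of those of HOXD11 are shared between them. HOXD3 had 0.123, 0.699 and 0.398 FPKM in the knockout libraries, against 0.976, 1.07 and 0.923 FPKM in the non-target libraries. HOXD9 had 0, 0.112 and 0.098 FPKM in the knockout libraries, against 0.314, 0.165 and 0.145 FPKM in the non-target libraries. HOXD12 was at 0.134 FPKM or less in every library, and HOXD1 ran from 0.294 to 0.559 FPKM with overlapping groups. Counted over all 9 HOXD members, 7 were lower in every knockout library than in any non-target library. Over all 22496 symbols 15.1% were, and below the filter 14.4%.

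The promoters of both HOXD genes that fell are shown so that their letters can be set beside each other, as the 250 bases upstream of the start in RefSeq on GRCh38.p14. Capitals mark matches on either strand to 4 motifs. The first is the box known as CCAAT and the second the TATA box, searched as TATAAA. The third, searched as TTTATNG, is bound by CDX proteins. The fourth, searched as TGATNNAT, is bound by PBX proteins together with HOX proteins.
HOXD13, chr2:176092471-176092720, plus strand: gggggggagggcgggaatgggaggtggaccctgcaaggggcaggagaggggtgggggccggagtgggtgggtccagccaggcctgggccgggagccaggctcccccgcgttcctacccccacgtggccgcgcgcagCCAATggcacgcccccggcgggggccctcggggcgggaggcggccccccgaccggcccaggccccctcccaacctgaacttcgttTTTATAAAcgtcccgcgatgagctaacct
HOXD4, chr2:176151300-176151549, plus strand: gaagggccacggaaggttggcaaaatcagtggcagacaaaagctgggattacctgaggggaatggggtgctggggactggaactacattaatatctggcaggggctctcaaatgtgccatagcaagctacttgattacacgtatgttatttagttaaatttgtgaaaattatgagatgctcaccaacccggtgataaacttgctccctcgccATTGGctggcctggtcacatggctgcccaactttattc
HOXD13 holds TATAAA on both strands, as overlapping matches that begin 29 and 27 bases before the start, and a CCAAT match that begins 114 bases before it. HOXD4 holds a CCAAT match 38 bases before the start and none of the other 3 motifs. No HOXB gene has a window in the promoter set used, so the shares below leave out that cluster, and some genes have more than 1 window. Of the 25 windows listed for 19 HOX members, 16 held CCAAT, or 64%, against 32.0% of all 34943 promoter windows. TTTATNG was in 6 of the 25 windows, or 24%, against 8.95% of all windows, and TATAAA in 5, or 20%, against 10.8%. TGATNNAT was in 2 of them, or 8%, against 6.49%.

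In HOXC 4 of 9 members were tested and 0 were called by limma, with 1 at an unadjusted p below 0.05. Of all genes tested 12.2% were called, so 0 calls among 4 genes does not set HOXC apart. HOXC4 had 0.530, 1.03 and 1.05 FPKM in the knockout libraries, against 1.88, 1.62 and 1.83 FPKM in the non-target libraries. Its groups did not overlap, and it missed the threshold narrowly (log2 fold change -0.58 ± 0.17, adjusted p = 0.0520). HOXC4 passed with TPM scaling (0.0492), median-ratio scaling (0.0398) and a replicate block (0.00620). HOXC6 had 1.03, 5.12 and 5.30 FPKM in the knockout libraries and 3.25, 3.25 and 4.04 FPKM in the non-target libraries. Its knockout replicates lay on both sides of the non-target libraries, so that the mean was 3.82 FPKM in knockout and 3.51 FPKM in non-target while the log2 fold change was -0.07 ± 0.39 (adjusted p = 0.931). HOXC5 and HOXC9 ran from 0.296 to 1.65 FPKM with overlapping groups (adjusted p = 0.763 and 0.852). HOXC4 shares 17.5% of its exonic bases with HOXC6, so the levels of HOXC4 and HOXC6 are uncertain if fragments were divided between genes. HOXC4 and HOXC5 have 1 promoter window between them in RefSeq. Their shared window, with the same motifs in capitals, follows.
HOXC4 and HOXC5, chr12:54016638-54016887, plus strand (GRCh38.p14): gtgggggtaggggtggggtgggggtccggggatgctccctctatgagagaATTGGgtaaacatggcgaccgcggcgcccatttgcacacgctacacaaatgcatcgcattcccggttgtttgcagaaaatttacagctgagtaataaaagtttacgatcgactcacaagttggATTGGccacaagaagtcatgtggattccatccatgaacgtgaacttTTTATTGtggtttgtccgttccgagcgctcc
It holds a CDX match, TTTATTG, 31 bases before the start and CCAAT matches 200 and 77 bases before it. HOXC8 had 0.060, 0.185 and 0.160 FPKM in the knockout libraries, against 0.352, 0.842 and 0.360 FPKM in the non-target libraries, with no overlap. HOXC12 ran from 0.310 to 0.658 FPKM. HOXC13, a regulator of hair keratin genes, had 0.166, 0.352 and 0.173 FPKM in the knockout libraries, against 0.074, 0.134 and 0.131 FPKM in the non-target libraries. HOXC10 and HOXC11 did not exceed 0.060 FPKM in any library.

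**Figure D4:**
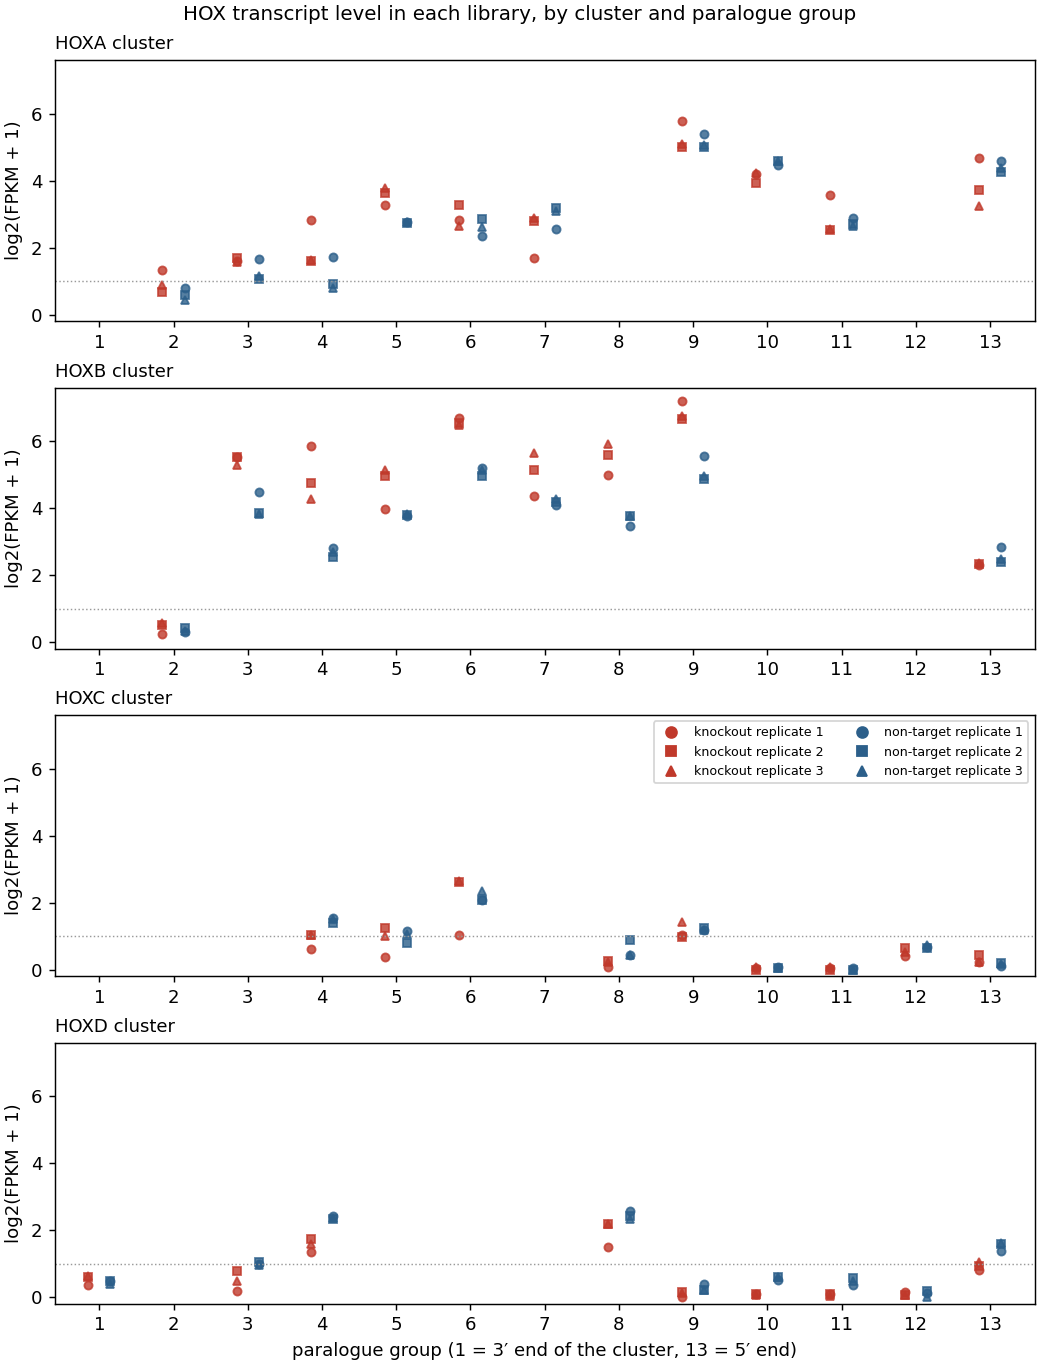
Level of the reported HOX genes in each library as log2(FPKM + 1), by cluster and paralogue group, knockout left of non-target in each pair; shapes give the replicate number and the dotted line marks 1 FPKM. HOXA and HOXB are expressed along most of their length, HOXC and HOXD reach at most 5.30 FPKM, and every gene from HOXB3 to HOXB9 lies higher in all knockout libraries.

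In paralogue groups 4 to 9 the log2 fold changes lay on both sides of 0, and differences between paralogues were not tested. In group 4 the log2 fold change was 2.27 for HOXB4, 0.88 for HOXA4, -0.58 for HOXC4 and -0.82 for HOXD4, and only HOXB4 and HOXD4 passed. Group 9 gave 1.74 for HOXB9, 0.14 for HOXA9 and -0.06 for HOXC9. Group 8 gave 1.84 for HOXB8 and -0.49 for HOXD8. In group 5, HOXA5 rose, HOXB5 was at 0.90 without passing, and HOXC5 was at -0.13. Group 6 gave 1.48 for HOXB6, 0.32 for HOXA6 and -0.07 for HOXC6, and group 7 gave 0.85 for HOXB7 and -0.49 for HOXA7. In group 13 the values were -0.52 for HOXA13, -0.23 for HOXB13 and -0.60 for HOXD13, of which only HOXD13 passed.

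Knockout replicate 1 stood apart from its group in many HOX genes. Of the 25 genes tested, 13 were over 1.5 times higher or lower in knockout replicate 1 than in the mean of knockout replicates 2 and 3, which is 52%, against 31.6% of all genes tested. For non-target replicate 1 against the mean of the other two it was 5 of 25, or 20%, against 17.5% of all genes tested. In knockout replicate 1 the 5 genes above the factor were HOXA4, HOXA9, HOXA11, HOXA13 and HOXB4. The 8 genes lower by more than the factor were HOXA7, HOXB5, HOXB7, HOXB8, HOXC4, HOXC5, HOXC6 and HOXD8. Genes of 1 cluster stand on both sides, HOXB4 at 2.55 times and HOXB5 at 0.461 times the mean of knockout replicates 2 and 3.

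Noncoding RNAs of the HOX clusters are read mostly from the opposite strand. Of 29 listed, 22 were found and 11 tested, of which 2 rose, 1 fell and 8 did not pass, with a median log2 fold change of -0.17. Over all genes tested 6.26% rose and 5.93% fell. HOXB-AS3, a transcript across the HOXB5 and HOXB6 region, had 81.0, 82.2 and 57.0 FPKM in the knockout libraries, against 35.2, 28.3 and 29.7 FPKM in the non-target libraries (1.20 ± 0.19, adjusted p = 0.00297). HOXB-AS1, beside HOXB2 and HOXB3, had 14.2, 14.7 and 11.3 FPKM in the knockout libraries, against 6.09, 4.24 and 4.03 FPKM in the non-target libraries (1.33 ± 0.20, adjusted p = 0.00185). Both were higher in every knockout library than in any non-target library. Of the coding neighbours, HOXB3 and HOXB6 rose, HOXB5 did not pass and HOXB2 was not tested. Overlap in GENCODE was searched only among the HOX genes and the named noncoding RNAs of the clusters, and other genes were not examined. Within that set, antisense exons cover 16.3% of the exonic bases of HOXB6, 5.29% of HOXB3 and 3.93% of HOXB5, and none of HOXB4, HOXB7, HOXB8 or HOXB9. The use of strand in the counting is not stated, so reads of the overlapping parts cannot be told apart. Of the 38 members, 20 are overlapped by antisense exons of that set and 9 share exonic bases with it on the same strand. Among the genes that rose, HOXB6 shares 16.6% of its exonic bases with HOXB3, HOXB3 shares 6.42% with HOXB4 and HOXB6, and HOXB4 shares 2.20% with HOXB3, so their levels carry the same uncertainty. The lists also hold the read-through symbol HOXA10-HOXA9, at 42.7, 24.6 and 27.4 FPKM in the knockout libraries and 36.6, 27.2 and 26.9 FPKM in the non-target libraries, so HOXA9 may share fragments with it.

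HOTTIP, an RNA from the 5′ end of HOXA next to HOXA13, had 4.54, 3.29 and 2.65 FPKM in the knockout libraries, against 10.8, 6.73 and 6.97 FPKM in the non-target libraries (-1.02 ± 0.23, adjusted p = 0.0186). EVX1, the homeobox gene beyond it, had 0.855, 0.857 and 0.835 FPKM in the knockout libraries, against 2.54, 1.92 and 1.94 FPKM in the non-target libraries (-0.76 ± 0.15, adjusted p = 0.0104). EVX1 reached 1 FPKM in the non-target libraries only, and so was tested through the group where it is high. HOXA13 itself did not pass. HOTTIP lost the call without knockout replicate 2, knockout replicate 3 or non-target replicate 1 (adjusted p up to 0.0777). Of 25 protein-coding genes listed around the clusters, 20 were found and 17 tested, of which SKAP1 rose, PRAC1 fell and 15 did not pass (median -0.03). Among all genes tested 12.2% were called, a share near that of this list. PRAC1, a nuclear protein gene of prostate and distal colon beside HOXB13, had 0.623, 0.234 and 0.416 FPKM in the knockout libraries, against 8.66, 3.04 and 5.11 FPKM in the non-target libraries (-2.13 ± 0.29, adjusted p = 0.00114). PRAC1 too reached 1 FPKM in the non-target libraries only. SKAP1, an adaptor protein gene on the 3′ side of HOXB, had 9.53, 6.85 and 8.48 FPKM in the knockout libraries, against 5.69, 2.21 and 2.60 FPKM in the non-target libraries (1.11 ± 0.28, adjusted p = 0.0282). SKAP1 lost the call without any 1 library except non-target replicate 1, with no filter and with TPM scaling (adjusted p up to 0.0998). With a replicate block 4 of these genes fell in place of 1.

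**Figure D5:**
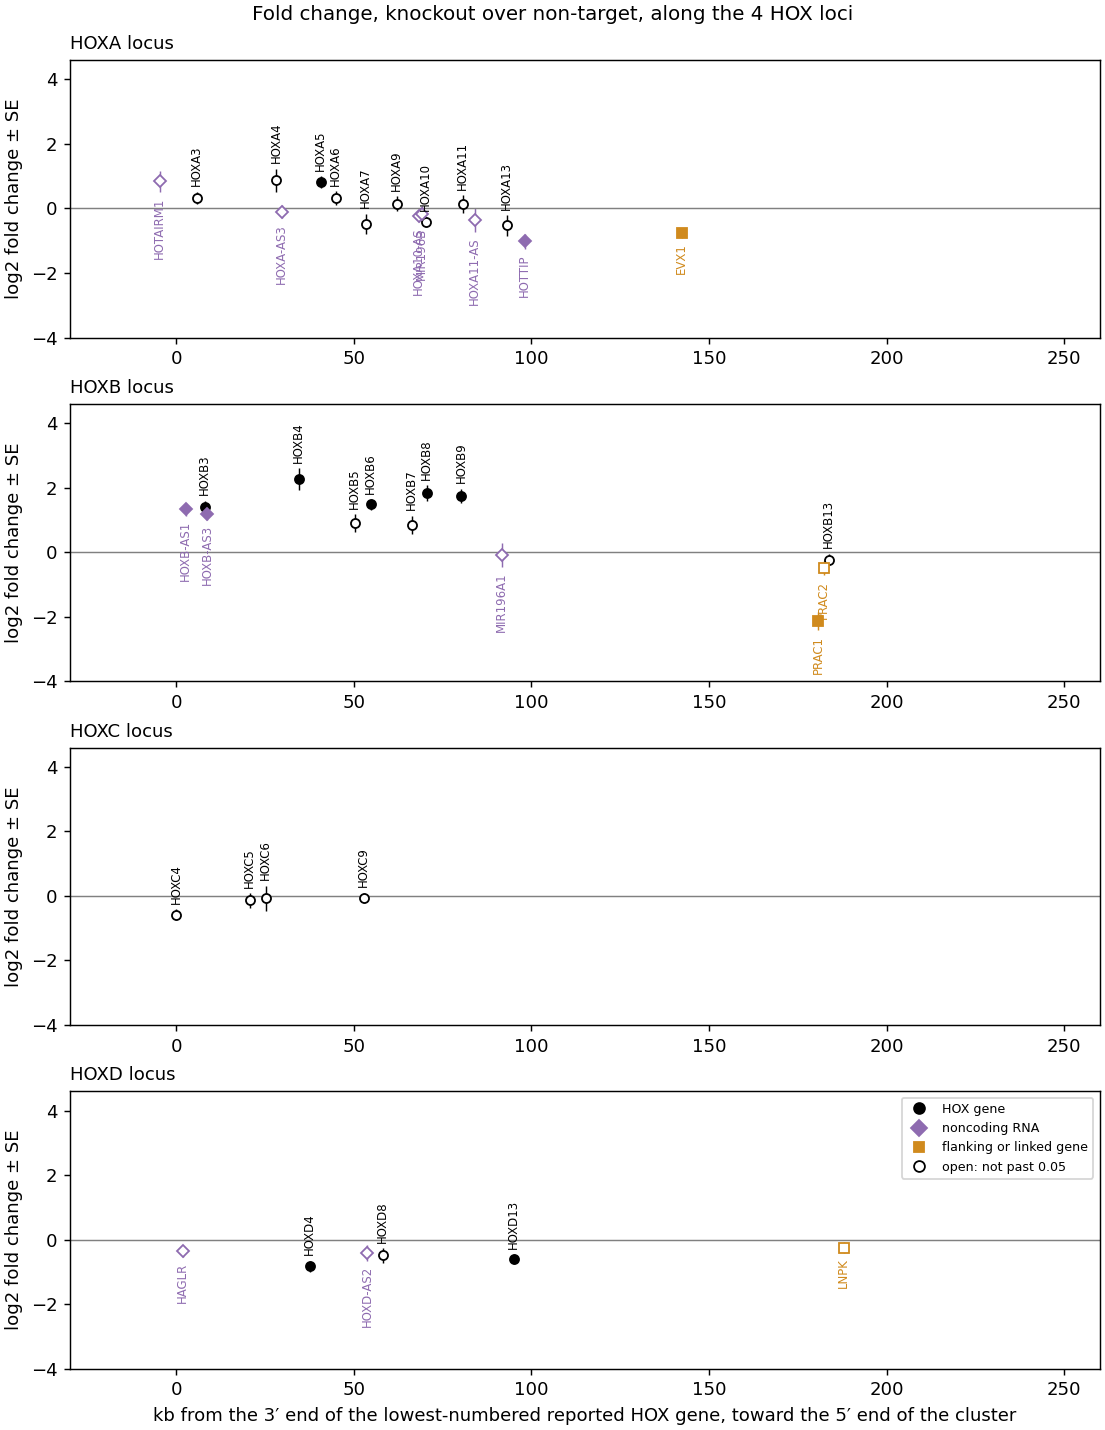
Log2 fold change of knockout over non-target with its SE along the 4 loci, for tested genes within the span drawn. Circles are HOX genes, diamonds noncoding RNAs of the clusters and squares flanking or linked genes. Tested flanking genes farther away, among them SKAP1, which rose, are not drawn. The x axis is the distance in kb from the 3′ end of the lowest-numbered reported HOX gene, and open symbols did not pass an adjusted p of 0.05. HOXB-AS1 and HOXB3 to HOXB9 lie above 0 and PRAC1, at -2.13, below; at HOXA the filled points below 0 are HOTTIP and EVX1.

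HOX proteins bind DNA together with TALE homeodomain partners of the PBX, MEIS and PKNOX families. Of 9 such genes, 6 were tested: MEIS3 rose, MEIS2 fell and 4 did not pass (median 0.19), where 6.26% of all genes tested rose and 5.93% fell. MEIS3 had 10.4, 13.5 and 16.6 FPKM in the knockout libraries, against 4.79, 3.87 and 3.41 FPKM in the non-target libraries (1.52 ± 0.21, adjusted p = 0.00114). MEIS2 had 0.995, 1.51 and 1.47 FPKM in the knockout libraries, against 3.15, 2.83 and 2.86 FPKM in the non-target libraries (-0.77 ± 0.17, adjusted p = 0.0149). MEIS3 and MEIS2 thus moved in opposite directions with no overlap in either. Among all genes tested 16.5% had no overlap upward and 15.7% had none downward. MEIS1 was below 1 FPKM in all libraries and was not tested, and its groups overlapped. For MEIS2 the adjusted p was 0.0597 when non-target replicate 2 was left out and 0.0664 when non-target replicate 3 was.

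Of 11 ParaHox and cluster-linked homeobox genes, 9 were found and 4 tested, of which CDX1 and EVX1 fell and CDX2 and MNX1 did not pass. CDX1, an intestinal caudal-type factor, had 0.102, 0.053 and 0.104 FPKM in the knockout libraries, against 1.23, 1.25 and 1.64 FPKM in the non-target libraries (-1.12 ± 0.14, adjusted p = 0.000642). It passed the filter on its non-target values alone. Among the regulators of HOX chromatin few genes passed. Of 30 Polycomb genes, all tested, JARID2 rose, 0 fell and 29 did not pass (median 0.02). JARID2, a partner of the H3K27 methyltransferase complex, had 5.001, 5.52 and 4.51 FPKM in the knockout libraries, against 3.19, 2.71 and 3.05 FPKM in the non-target libraries (0.59 ± 0.17, adjusted p = 0.0479). JARID2 lost the call without knockout replicate 2 or any 1 of the non-target libraries, and under pseudocount 0.1, no filter and TPM scaling (adjusted p up to 0.262). Of 19 MLL/trithorax and demethylase genes, 0 passed, and the smallest p was that of DPY30 (0.61 ± 0.19, adjusted p = 0.0665), a shared subunit of the H3K4 methyltransferase complexes. At an unadjusted p below 0.05 the limma test gave 1 gene of the 19. DPY30 passed with a replicate block (adjusted p = 0.00239) and without knockout replicate 1 (0.0281). With the block 1 gene of the trithorax list rose and 1 fell, and 4 of the Polycomb list rose and 1 fell. Of 9 CTCF and cohesin genes, STAG1 fell (-0.89 ± 0.22, adjusted p = 0.0295) and 8 did not pass. STAG1 lost the call without any 1 library except knockout replicate 2, and with no filter (adjusted p up to 0.118). The percentages called over all genes, given above, were 6.26% upward and 5.93% downward.

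Retinoic acid switches on HOX genes in development. Of 24 listed retinoid and HOX-target genes, 23 were found and 17 tested, of which 4 rose, 3 fell and 10 did not pass (median 0.15), where 12.2% of all genes tested were called. ALDH1A1, an enzyme that makes retinoic acid, had 1.03, 0.653 and 0.619 FPKM in the knockout libraries, against 26.6, 19.1 and 18.4 FPKM in the non-target libraries (log2 fold change -3.65, adjusted p = 2.43e-05). RDH10, the retinol dehydrogenase of the step before, had 39.4, 76.3 and 69.9 FPKM in the knockout libraries, against 17.0, 15.2 and 15.2 FPKM in the non-target libraries (1.85, adjusted p = 0.000933). CRABP1, a binding protein for retinoic acid, had 4.33, 2.73 and 2.73 FPKM in the knockout libraries, against 9.33, 14.3 and 16.3 FPKM in the non-target libraries (-1.74, adjusted p = 0.00125). ALDH1A3, an enzyme of the same step as ALDH1A1, had 235, 514 and 382 FPKM in the knockout libraries, against 180, 159 and 158 FPKM in the non-target libraries (1.12 ± 0.26, adjusted p = 0.0221). It was added after its values were seen. ALDH1A3 and RDH10 thus rose and ALDH1A1 fell, and the groups did not overlap in any of these genes or in CRABP1. The other called genes were CRABP2 (1.42, limma adjusted p = 0.00514) and RARG (0.77, 0.0228), which rose, and CYP26A1 (-0.94, 0.00303), which fell. CYP26A1 passed the filter on its non-target values alone. The increases in this list numbered 2 without knockout replicate 2 or 3 or non-target replicate 2 or 3. The decreases stayed at 3 without any single library.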

How the data were processed

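Poly-A RNA of 6 LoVo libraries, 3 per genotype, was sequenced. The deposited values are FPKM per gene symbol, fragments scaled by transcript length and mapped total. Per the submitters' processing notes, the authors aligned trimmed reads to hg19 with TopHat2 2.1.1 and computed FPKM with STAR 2.7.10b. The labels do not state whether counting used strand.

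Symbols absent from a list were set to 0. The test was limma 3.58.1 in R 4.3.3 (trend, robust, two-sided, Benjamini-Hochberg, threshold 0.05) on log2(FPKM + 1). It was fitted on the 13092 genes at 1 FPKM or more in at least 3 of 6 libraries. Fold changes on that scale understate low genes. Depth was estimated from the smallest steps between low FPKM in genes with 1 annotated transcript, at 21000000 to 22500000 fragments per library. Only 60 to 82 of 181 to 224 low values lay on the step, so no count test was run. Coordinates are GENCODE on GRCh37, where 89.0% of symbols matched.

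The members and gene lists were chosen with earlier results of these data known. HOX genes are given by their levels, except 1 member that enters the counts and sums and is not reported here by name. From each other list the report names at most 3 called genes, those of largest change, or the lowest p where none was called. Named outside this rule are some cell type markers, CDX2 and MNX1, the miR-196 symbols and the other called retinoid genes.

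Replicate numbers are shared between genotypes. Deviations from the group means correlated at 0.547, 0.309 and 0.331 for numbers 1, 2 and 3 across genes, each above 0.1. Only the replicate 1 libraries were matched by number. Centring each group makes replicates 2 and 3 deviate together when replicate 1 stands apart, so their values cannot show a pairing. Replicates 2 and 3 were not told apart (0.321 and 0.320 when crossed), and the block assumes their pairing. The report's values come from the fit without the block, and blocked values stand beside the results they change. Blocking leaves 2 residual degrees of freedom, and 86.4% of its genes take their spread wholly from other genes. On simulated data with 200 changed genes, the test recovered 77.8% of 2-fold and 94.8% of 4-fold changes. Of its calls 7.09% were false (mean of 5 runs, 12842.8 genes tested on average). The simulated noise was independent between genes and libraries, unlike the deviations shared by the replicate 1 libraries, so these shares may not hold for the data. Pseudocounts, filters, scalings, the replicate block and leaving out libraries were tried.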

Additional observations from a re-analysis of the deposited data

How the results depend on the processing

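The 6 HOX increases stayed between 5 and 9 in every planned setting, and were 10 without both replicate 1 libraries, a setting chosen after seeing the data, where HOXA3 (adjusted p = 0.0406), HOXA4, HOXB5 and HOXB7 passed as well. The 2 HOX decreases were less stable: 4 with no filter, where HOXD10 (adjusted p = 0.00481) and HOXD11 (0.0151) were added, 0 with a mean of at least 5 FPKM, where no HOXD gene is tested, 1 with quantile normalization, 4 with a replicate block, 0 with non-target replicates 2 and 3 as 1 sample, and 0 to 2 when single libraries were left out. Over all genes, 820 rose and 777 fell. These were 519 and 346 with a mean of at least 5 FPKM, 1767 and 1542 with a replicate block, 416 and 528 with non-target replicates 2 and 3 as 1 sample, 1329 and 951 without both replicate 1 libraries, and 411 to 1041 and 500 to 929 without single libraries. Of the genes called 51.3% rose, against 39.9% with no filter. TPM scaling gave a ratio of 2.76 for the HOXB sum, against 2.92. Over the 25 HOX genes, 12 results changed direction, none of them called. HOXA9 was at -0.0039 with quantile normalization and ran from -0.11 without knockout replicate 1 to 0.30 as single libraries were left out. HOXA11 ran from -0.21 (without knockout replicate 1) to 0.31 and was at -0.13 without both replicate 1 libraries. HOXC5 ran from -0.31 to 0.11 (without knockout replicate 1), and was at 0.022 with quantile normalization and 0.19 without both. HOXC6 ran from -0.35 to 0.47 (without knockout replicate 1), above 0 also without non-target replicate 3, and was at 0.42 without both. HOXC9 was at 0.057 with quantile normalization and ran from -0.20 to 0.020 (without knockout replicate 2). SHARPIN ran from -0.41 to 0.17 (without knockout replicate 1) and was at 0.12 without both. The causes were not tested. Beyond the HOX genes named with it in the report, the replicate block changed no other HOX call. Depth limits HOXC10, HOXC11, HOXD9 and HOXD12 most, whose values amount to few fragments.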
